A study of Geissois pruinosa and Geissois racemosa with 6 samples.

Results

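The steady contigs are 350 of the 54969 assembled Geissois pruinosa transcript sequences (contigs). With plain library totals, their abundance in leaves stayed within a 1.5-fold range over 6 plants from both species. The contigs were chosen on the measured values themselves. A contig was taken when it had 50 CPM or more (CPM is the count of a contig divided by the total of its library, times 1000000) in each of 6 libraries, a mean under 1000 CPM, and a highest CPM at most 1.5 times its lowest. The libraries were made from polyadenylated leaf RNA of 6 wild plants, each from its own site in New Caledonia. Geissois pruinosa, labelled a nickel hyperaccumulator, gave 3 plants collected on 11 March, and Geissois racemosa, labelled as a plant that does not accumulate nickel, gave 3 collected on 11 June (plant 1) and 12 June (plants 2 and 3). No treatment was applied, and the labels state no plant age. Species, site and month of collection changed together and cannot be told apart, and G. racemosa reads were counted on contigs of the other species.

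In any tissue, part of the transcriptome codes for functions that every living cell needs, such as the cytoskeleton, protein synthesis and turnover, and basic energy metabolism. Transcripts of such housekeeping genes tend to vary less between samples than those of genes that respond to light, season, soil or attack, and some of them serve as internal references when other transcripts are quantified. Steadiness is nevertheless a property of the samples compared and has to be measured in each set. Which functions the 350 contigs have cannot be stated here: the files give neither names nor lengths nor sequences for the contigs, so contigs are called by their numbers. Counts also grow with contig length, so CPM values were compared between plants for one contig and not as expression levels between contigs.

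Library totals ran from 23661301 to 64908952 counts. A pair of library features touches what follows. The library of pruinosa plant 3 never fell below 0.294 of the CPM of racemosa plant 1 at any of the 8311 contigs with at least 500 counts in the latter, whereas from 136 to 1028 of these contigs fell below that ratio in the other 4 libraries. Pruinosa plant 2 had 2 contigs at 0 counts, against 3134 to 8727 in the other 5 libraries. Counts of the steady contigs are therefore also given without these libraries.

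The level conditions alone left few contigs. At least 50 CPM in all 6 libraries was found for 2278 contigs, of which 78 had a mean of 1000 CPM or more. The other 2200 form the level window from which the steady contigs were taken, and 350 of them (15.9%, or 0.637% of all contigs) met the limit on the ratio. The median ratio of highest to lowest CPM was 1.95 in the level window and 1.39 among the steady contigs, and 1044 contigs of the window (47.5%) varied more than 2-fold. At the other end 17 contigs of the window varied more than 10-fold, the most variable of them 58.0-fold.

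Within the steady set the ratios crowded towards the limit. The limit was approached within 0.1 by 168 of the 350 contigs, 37 had a highest CPM at most 25% above the lowest, and 1 had a ratio of 1.1 or less. A further 197 contigs lay between 1.5 and 1.6. The limit thus runs through a continuous distribution. Just inside it were Gpru_v1_contig_10085 (1.499) and Gpru_v1_contig_2286 (1.497), and just outside it Gpru_v1_contig_6718 and Gpru_v1_contig_7264 (1.501 each).

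**Figure D1:**
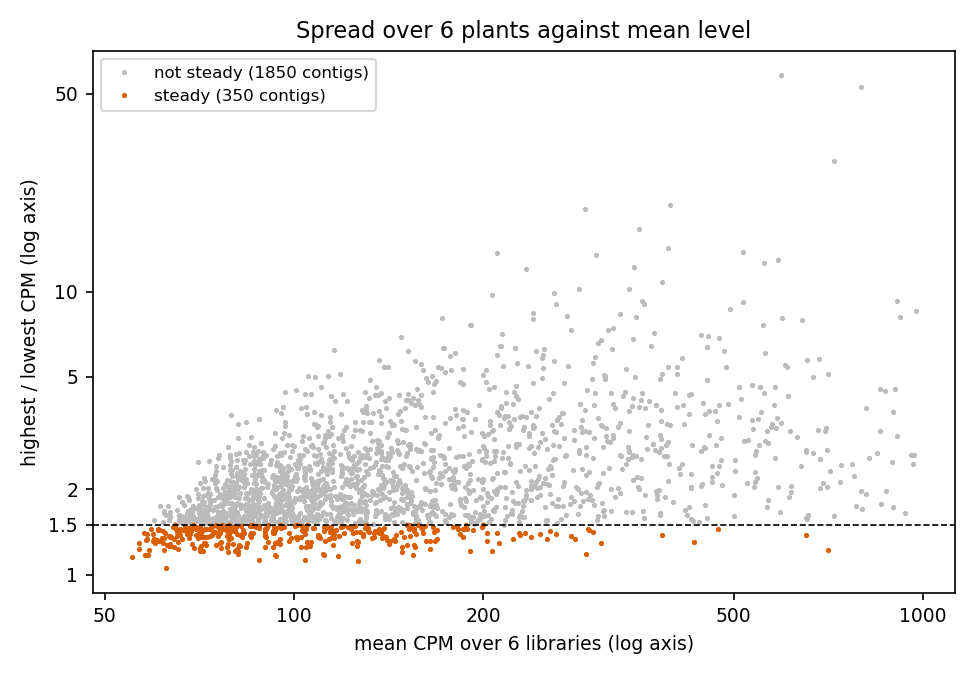
Each point is one of the 2200 contigs with at least 50 CPM in every library and a mean under 1000 CPM, with its mean CPM on the x axis and its highest CPM divided by its lowest over the 6 libraries on the y axis (both log axes). The dashed line is the limit of 1.5, below which the 350 steady contigs lie; the sloping edge at the left comes from the 50 CPM minimum, which leaves contigs with means near 50 CPM no room for a large ratio.

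With plain library totals, on which the contigs were chosen, Gpru_v1_contig_6871 had the lowest ratio. It had 60.3, 63.6 and 63.1 CPM in pruinosa plants 1, 2 and 3 and 63.3, 63.1 and 61.5 CPM in racemosa plants 1, 2 and 3. The species overlapped, and the lowest and the highest value were both from G. pruinosa. Its ratio was 1.05 and its coefficient of variation (SD divided by the mean) over the 6 plants was 2.06%, close to the 1.91% that counting error alone gives at these depths. With totals scaled by TMM, which estimates one factor per library from the bulk of the contigs, its ratio was 1.21 and its coefficient of variation 7.09%, and Gpru_v1_contig_6662, a member named for this after its values were seen, had the lowest ratio (1.08). The ratios of the 8 steadiest contigs ran from 1.163 to 1.402 under TMM, and the shapes described next are those with plain totals.

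Gpru_v1_contig_2081 came next, with a ratio of 1.12. It had 133, 129.9 and 133 CPM in pruinosa plants 1, 2 and 3 and 120.1, 119 and 124 CPM in racemosa plants 1, 2 and 3. All 3 G. pruinosa values lay above all 3 G. racemosa values, with means of 132 ± 1.75 and 121 ± 2.40 CPM (SD, n = 3 plants each). With TMM-scaled totals the values were 142, 118 and 133 CPM against 117, 132 and 117 CPM, and the species overlapped, so the split holds for plain totals only.

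Gpru_v1_contig_6030 showed a different shape. It had 89.4, 90.1 and 88.4 CPM in G. pruinosa and 90.6, 80.5 and 89.3 CPM in G. racemosa (plants 1, 2 and 3 of each). A single library, racemosa plant 2, was low, and the other 5 lay within a few CPM of each other.

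Gpru_v1_contig_1506 had 101.6, 102.2 and 109.9 CPM in G. pruinosa and 105.9, 97.5 and 106.9 CPM in G. racemosa. Racemosa plant 2 was again the lowest library, and the species overlapped. Gpru_v1_contig_462 had 117.9, 119.3 and 121 CPM in G. pruinosa and 113, 108 and 126 CPM in G. racemosa, so the G. racemosa plants spanned the G. pruinosa plants on both sides.

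Gpru_v1_contig_13603, which was also the steady contig with the lowest mean (55.2 CPM), had 50.8, 57.5 and 50.8 CPM in G. pruinosa and 57.3, 58.8 and 56.3 CPM in G. racemosa. Pruinosa plant 2 lay among the G. racemosa plants, and the other G. pruinosa plants lay below them, just over the 50 CPM minimum. Gpru_v1_contig_10675 had 87.0, 87.3 and 94.2 CPM in G. pruinosa and 101.5, 100.3 and 90.4 CPM in G. racemosa. Gpru_v1_contig_11102 had 54.2, 58.5 and 58.9 CPM in G. pruinosa and 63.4, 62.6 and 54.3 CPM in G. racemosa. In these last 2 contigs racemosa plants 1 and 2 were the highest libraries, and racemosa plant 3 lay among the G. pruinosa plants.

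**Figure D2:**
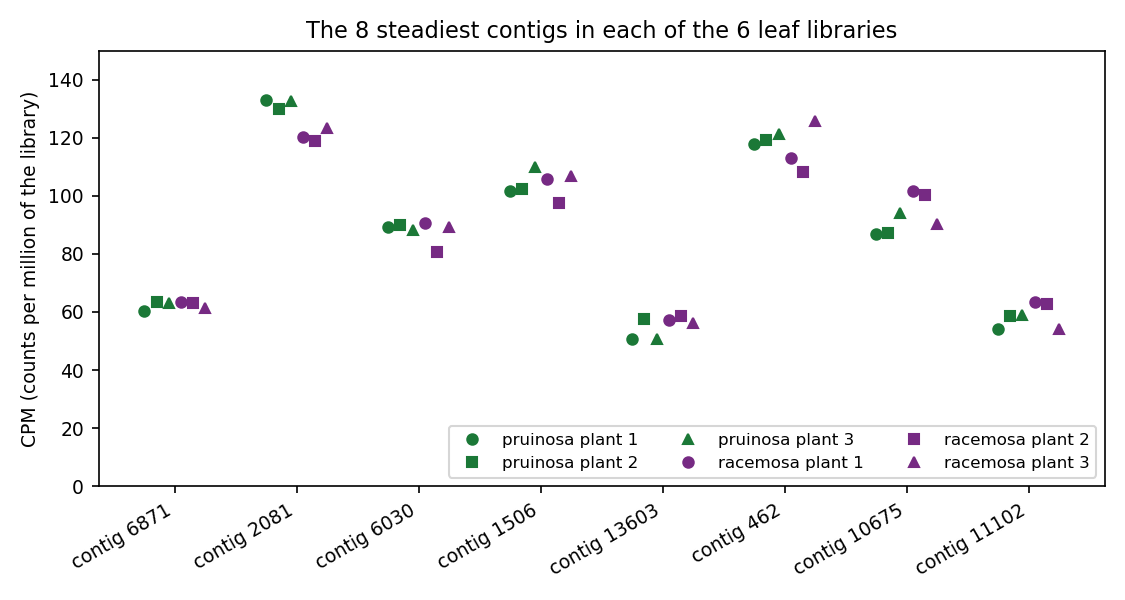
CPM (y axis, from 0) of the 8 contigs with the lowest highest-to-lowest ratio in each library; green symbols are G. pruinosa plants, purple symbols G. racemosa plants, and the symbol shape is the plant number. The 6 values of Gpru_v1_contig_6871 lie between 60.3 and 63.6 CPM, while those of Gpru_v1_contig_2081 split by species with the plain totals plotted here and overlap with TMM-scaled totals.

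Next come the 3 steady contigs with the highest mean CPM. Gpru_v1_contig_931 had 702, 729 and 637 CPM in G. pruinosa and 779, 672 and 715 CPM in G. racemosa, a ratio of 1.22 with overlapping species. Gpru_v1_contig_2649 had 593, 633 and 619.7 CPM in G. pruinosa and 816, 590.3 and 663 CPM in G. racemosa. Racemosa plant 1 stood above the other 5 libraries, and the ratio was 1.38. Gpru_v1_contig_1368 had 553, 554 and 392 CPM in G. pruinosa and 483, 384 and 472 CPM in G. racemosa, with pruinosa plant 3 and racemosa plant 2 both low and a ratio of 1.44.

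At the low end stood, beside Gpru_v1_contig_13603, Gpru_v1_contig_7885 with 66.7, 58.5 and 51.4 CPM in G. pruinosa and 54.1, 51.8 and 57.5 CPM in G. racemosa. Here the spread was wider among the G. pruinosa plants, and the species overlapped. Gpru_v1_contig_5859 had 54.8, 55.4 and 54.1 CPM in G. pruinosa and 60.2, 52.0 and 64.3 CPM in G. racemosa. With these plain totals its G. pruinosa plants differed by a factor of 1.02 and its G. racemosa plants by 1.24. With TMM-scaled totals the values were 58.5, 50.2 and 54.3 CPM against 58.7, 57.6 and 61.2 CPM. The wider spread was then among the G. pruinosa plants.

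Over the 350 contigs the mean level ran from 55.2 to 706 CPM, with a median of 93.1 CPM, against a median of 123 CPM in the level window. Counting error was small beside these ratios. The lowest count of a steady contig in any library was 1219, where counting error is 2.86%. Its median over the contigs was 1.57%, against a median coefficient of variation of 12.5% over the 6 plants.

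The 50 CPM minimum shapes the low end of the set, so the share of steady contigs was also taken by mean level alone, without a minimum in each library. A ratio of at most 1.5 was found for 12.9% of the 1454 contigs with means from 50 to 75 CPM, 11.5% of the 829 from 75 to 100 CPM and 12.5% of the 1067 from 100 to 200 CPM. It was found for 4.80% of the 500 contigs from 200 to 500 CPM and 1.75% of the 114 from 500 to 1000 CPM, that is, for 24 and 2 contigs. Of the 79 contigs of 1000 CPM or more, 2 had such a ratio. The shares were lower in the classes above 200 CPM, a difference that was not tested, while counting error fell with the count (medians of 1.33% from 100 to 200 CPM and 0.599% from 500 to 1000 CPM). Without pruinosa plant 3 the shares were 16.1%, 13.8%, 13.7%, 7.98% and 2.65% in the 5 classes up to 1000 CPM. Below 50 CPM the share was 11.6% from 20 to 50 CPM and 7.51% from 10 to 20 CPM, where counting error was larger (medians of 2.73% and 4.03%).

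The steady contigs together held between 3.82% of the counts (racemosa plant 2) and 4.33% (racemosa plant 1) of a library. For G. pruinosa this share averaged 3.95% ± 0.0647 and for G. racemosa 4.10% ± 0.257 (mean ± SD of 3 plants). The rule limits how far these sums can differ, so they are given as a description.

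The libraries did not take the ends of the range equally. Racemosa plant 1 had the highest CPM in 128 of the 350 contigs and the lowest in 6. Racemosa plant 2 had the lowest CPM in 118 and the highest in 26. Racemosa plant 3 was highest in 92 and lowest in 25, and pruinosa plant 1 was highest in 33 and lowest in 89. In the level window the ends were taken unequally as well. Racemosa plant 1 was highest in 31.6% of the window and 36.6% of the steady contigs. Racemosa plant 3 was highest in 17.8% and 26.3%. Racemosa plant 2 was lowest in 22.4% of the window and 33.7% of the steady contigs, and pruinosa plant 1 in 35.9% and 25.4%. The most frequent combinations were racemosa plant 1 over pruinosa plant 1 (40 contigs) and racemosa plant 1 over racemosa plant 2 (38 contigs). The highest value came from a G. racemosa plant and the lowest from a G. pruinosa plant in 162 contigs, and the reverse held in 65 (182 and 63 with TMM-scaled totals). Both ends came from G. racemosa plants in 84 contigs and from G. pruinosa plants in 39. With TMM-scaled totals these counts were 49 and 56, so their order reversed.

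This order depended on how libraries were scaled. With TMM factors, which ran from 0.903 to 1.102, pruinosa plant 2 was the lowest library in 154 of the 350 contigs and racemosa plant 2 in 40. The median deviation of the 350 contigs from their own mean (log2 CPM) was -0.09 in racemosa plant 2 with plain totals and 0.05 with TMM, and -0.0023 and -0.14 in pruinosa plant 2. In racemosa plant 1 it was 0.12 and 0.08. The most abundant contig of a library, which need not be the same in each, took 3.41% of all counts in racemosa plant 2. In the other libraries it took from 1.38% to 2.40%. The part of such contigs in this order was not tested. With TMM-scaled totals 449 contigs met the rule, and 275 of them were among the 350 (78.6% of the 350 and 61.2% of the 449).

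**Figure D3:**
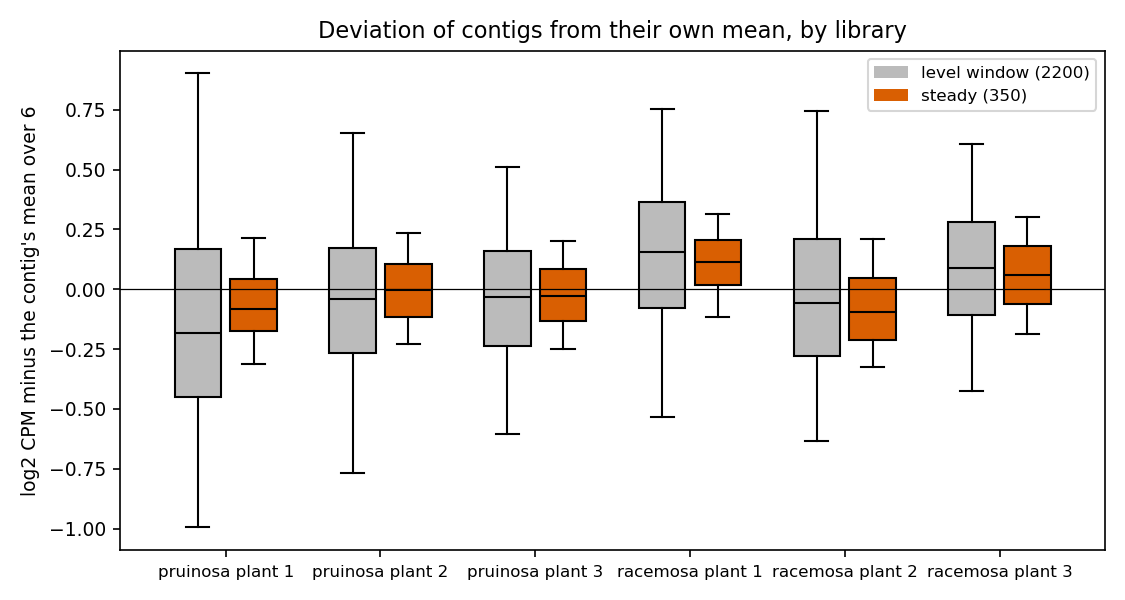
For each library, the log2 CPM of a contig minus its mean over the 6 libraries, for all 2200 contigs of the level window (grey) and the 350 steady contigs (orange); boxes are quartiles with the median as a line, and whiskers run from the 5th to the 95th percentile. With plain totals the steady contigs sit highest in racemosa plant 1 (median 0.12) and lowest in racemosa plant 2 (median -0.09).

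Between pairs of libraries, the median absolute log2 difference of the steady contigs lay between 0.15 (pruinosa plants 2 and 3) and 0.23 (racemosa plants 1 and 2). In the level window it lay between 0.28 and 0.62. After the median difference of each pair was removed, the closest pair was pruinosa plant 3 and racemosa plant 1, in the steady contigs (0.12) as in the window (0.23), the same 2 libraries as in the lower limit of 0.294 given above. With plain totals, the steady contigs had a median highest-to-lowest ratio within a species of 1.20 in G. pruinosa and 1.27 in G. racemosa. In the level window it was 1.51 and 1.43.

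Many contigs that were steady within each species were not steady over both. The same limit is stricter over all 6 libraries than within a species, so the number can only fall, whatever the plants. In the level window, 1086 contigs (49.4%) had a ratio of at most 1.5 among the G. pruinosa plants and 1308 (59.5%) among the G. racemosa plants. Both held for 686 contigs. Of these, 350 (51.0%) were also steady over all 6 libraries and 336 were not. The species overlapped in 157 of the 336; in 148 all G. pruinosa plants lay below all G. racemosa plants, and in 31 above. Contigs steady within each species but not over both are bound to separate more readily than others, so these counts are not set against the 10.4% lower and 14.7% higher of all tested contigs, or the 384 and 115 of the 2200 in the level window, that did not overlap. With TMM-scaled totals the corresponding numbers were 182, 149 and 38 of 369. Species means differed 2-fold or more in 8 of the 336. Without pruinosa plant 3, 989 contigs were steady within both species, and 413 of them over the other 5 libraries. Of the remaining 576, 349 were lower in G. pruinosa without overlap and 109 were higher. With fewer G. pruinosa plants the species separate more readily, so these counts are not set against those from all 6 libraries.

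The rule was also applied to 5 libraries, and the sixth was then looked at. Between 427 and 705 contigs were steady in 5 libraries. Over the 6 turns, 67.4% of the contigs chosen this way kept a ratio of at most 1.5 when the sixth library was added. In each turn the contigs kept included all 350 steady contigs and few others. The share thus mostly restates how many contigs were steady in 5 libraries. A contig not steady in 5 cannot become so with the sixth, so no share of other contigs can stand beside it. The share was 50.8% (358 of 705) with pruinosa plant 1 as the sixth, 79.2% (357 of 451) with pruinosa plant 2 and 82.9% (354 of 427) with pruinosa plant 3. With racemosa plants 1, 2 and 3 as the sixth it was 65.5% (351 of 536), 65.3% (362 of 554) and 71.7% (354 of 494). The share was thus lowest for pruinosa plant 1 and highest for pruinosa plant 3. Among the 5 libraries without pruinosa plant 3 the share over all turns was 62.3%, and among those without racemosa plant 1 it was 69.0%.

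A milder reading compares the sixth library with the mean of the other 5. In pruinosa plant 1, 76.5% of the contigs steady in the other 5 lay within 1.5-fold of their mean there, against 49.2% of the contigs of the same level window that were not steady in the other 5. In pruinosa plants 2 and 3 the shares were 94.2% against 73.6% and 95.3% against 81.3%. In racemosa plants 1, 2 and 3 they were 91.2% against 74.4%, 88.6% against 74.3% and 90.7% against 83.9%. The share was higher among the contigs steady in the other 5 in each of the 6 turns, with the narrowest gap in racemosa plant 3. The turns share libraries, so they do not count as 6 independent replications, and no test was made.

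**Figure D4:**
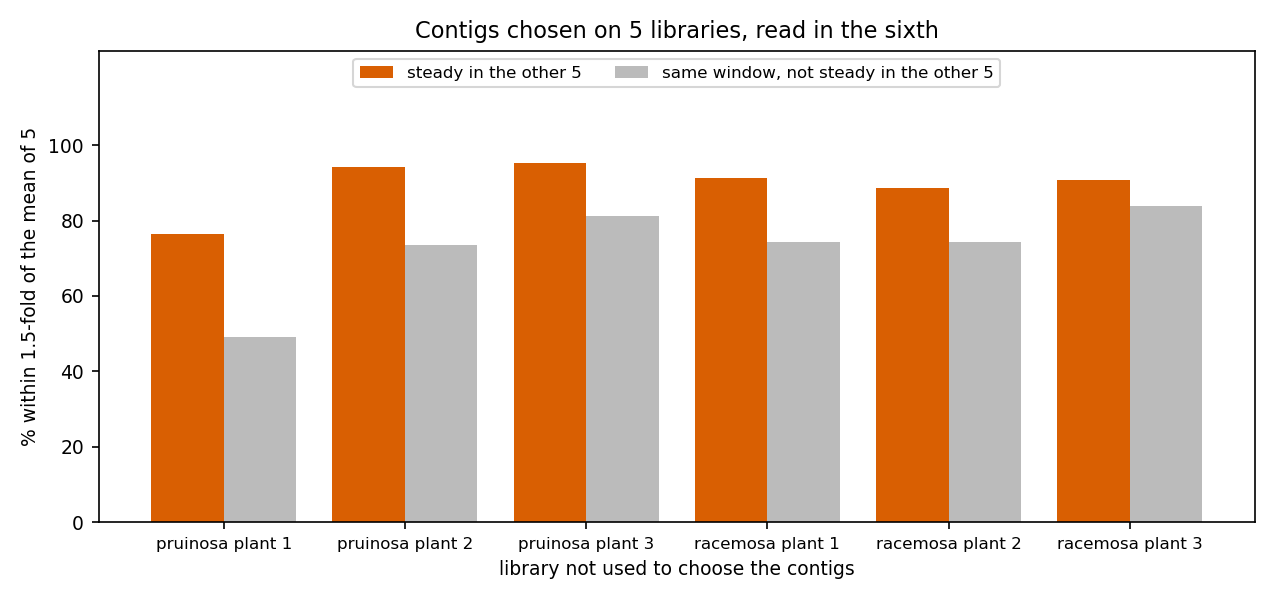
For each library left out of the choice (x axis), the percentage of contigs whose CPM there lay within 1.5-fold of their geometric mean over the other 5 libraries (y axis), for contigs steady in those 5 (orange) and for contigs of the same level window that were not (grey). The orange bar is the higher one in all 6 libraries and is lowest, at 76.5%, in pruinosa plant 1.

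Some contigs steady in 5 plants departed widely in the sixth; 4 of them are named here after their values were seen. Gpru_v1_contig_8074 had 12.6 CPM in pruinosa plant 1 and from 52.8 to 76.3 CPM in the other 5 libraries, 0.205 of their mean. Gpru_v1_contig_6515 had 14.6 CPM in the same plant and from 63.1 to 79.4 CPM elsewhere. These are low values well above counting error, since they rest on 598 and 694 counts. Gpru_v1_contig_2013 had 1851 CPM in pruinosa plant 1 and from 576 to 748 CPM elsewhere, and Gpru_v1_contig_480 had 185 CPM in pruinosa plant 3 and from 50.5 to 69.9 CPM elsewhere. A departure of 2-fold or more was found in 8.51% of the 705 contigs in pruinosa plant 1 (28 higher, 32 lower) and in 0.405% to 0.937% of the contigs in each of the other 5 libraries. Among contigs of the same level window that were not steady in the other 5, such departures were found in 23.8% in pruinosa plant 1 and in 3.84% to 11.6% in the other libraries.

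The comparison of the species was fitted over the whole table, and the rows of the steady contigs are a description, since the choice used the same libraries. All 350 passed the filter on low counts. The quasi-likelihood test of edgeR called 1.13% of 43447 contigs at a Benjamini-Hochberg adjusted p under 0.05, and 0 of the 350. At an unadjusted p under 0.05 the share over all tested contigs was 18.2%, and the count among the 350 was 0. With DESeq2 (9.57% of all tested) and limma-voom (0.916%) the count of steady contigs called was also 0. A ratio limited to 1.5 leaves little room for a difference between species, so nothing is read from these counts.

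The small differences that remained leaned one way. The median log2 fold change (G. pruinosa minus G. racemosa) was -0.09 among the steady contigs, -0.15 in the level window and 0.10 over all tested contigs. Below 0 were 245 of the 350 steady contigs (70.0%), 64.5% of the level window and 45.2% of all tested contigs. The level window as a whole thus leaned the same way as the steady contigs. The steady median kept its sign in each of the 14 alternative fits, with medians from -0.20 to -0.02. These fits reuse the libraries that chose the contigs, so they do not count as independent replications. The number below 0 also moved with the setting. It was 201 of the 350 under a stricter filter that asked every library for 10 counts or more (median -0.02). Without pruinosa plant 1 it was 308 (median -0.17). The species did not overlap in 44 of the 350 steady contigs (12.6%) by plain CPM, 36 lower and 8 higher in G. pruinosa. In the level window 22.7% did not overlap, with 384 contigs lower and 115 higher. Over all tested contigs 25.2% did not overlap (10.4% lower and 14.7% higher).

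The largest difference among the steady contigs was that of Gpru_v1_contig_3047, with 253, 250.2 and 249 CPM in G. pruinosa and 345, 299 and 361 CPM in G. racemosa. The species did not overlap, and with plain totals the G. pruinosa plants differed from each other by a factor of 1.02. With TMM-scaled totals they had 270, 227 and 250 CPM, still below the 337, 331 and 344 CPM in G. racemosa. The fit gave a log2 fold change of -0.44 ± 0.24 (standard error, edgeR adjusted p = 0.385, n = 3 plants each).

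Gpru_v1_contig_5823 had 107, 124 and 107 CPM in G. pruinosa and 146, 145 and 157 CPM in G. racemosa. All G. racemosa plants again lay above all G. pruinosa plants, with a log2 fold change of -0.44 ± 0.22 (standard error, edgeR adjusted p = 0.348).

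In the opposite direction, Gpru_v1_contig_9739 had 77.5, 89.3 and 81.9 CPM in G. pruinosa and 69.6, 63.9 and 60.7 CPM in G. racemosa. The species did not overlap, and the log2 fold change was 0.33 ± 0.22 (standard error, edgeR adjusted p = 0.468). Gpru_v1_contig_4129 had 116, 132 and 129 CPM in G. pruinosa and 90.7, 90.3 and 126 CPM in G. racemosa. Racemosa plant 3 lay among the G. pruinosa plants (with TMM-scaled totals just below them), and the log2 fold change was 0.28 ± 0.23 (standard error, edgeR adjusted p = 0.568). None of these 4 passed the threshold in any of the 14 alternative fits, and all 4 kept their sign. The size of the difference was less stable for the contigs higher in G. pruinosa. Over these fits the log2 fold change of Gpru_v1_contig_9739 ran from 0.17 to 0.39 and that of Gpru_v1_contig_4129 from 0.08 to 0.34. For Gpru_v1_contig_4129 it was 0.15 without racemosa plant 1, and lowest without pruinosa plant 3 and racemosa plant 1 together.

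**Figure D5:**
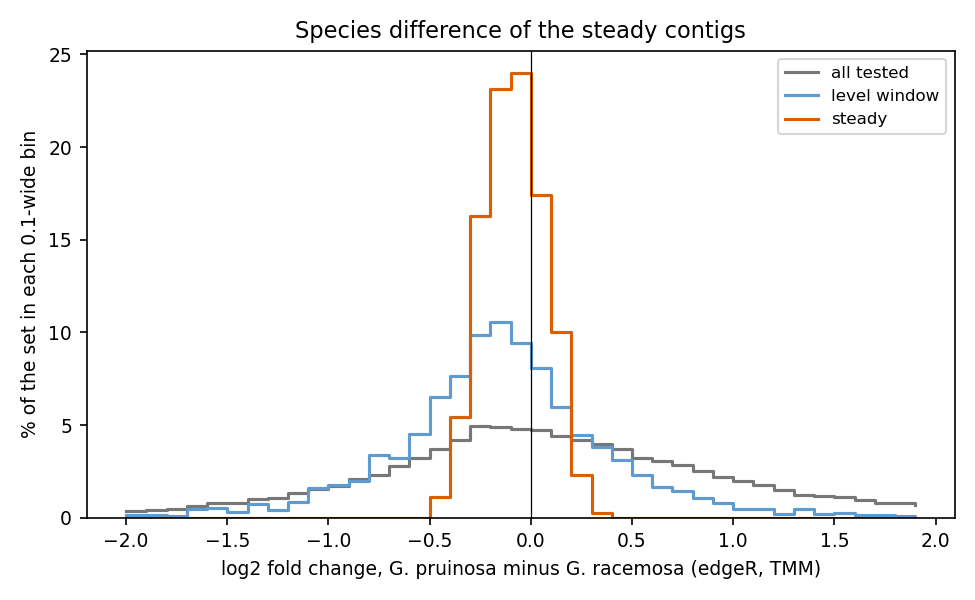
Percentage of contigs (y axis) in bins of the log2 fold change between G. pruinosa and G. racemosa (x axis, edgeR with TMM scaling, shown from -2 to 2) for the 350 steady contigs, the 2200 contigs of the level window and all 43447 tested contigs. The steady contigs lie between -0.44 and 0.33, a range set by the way they were chosen, with a median of -0.09.

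The variation left in the steady contigs was divided into parts within and between the species, as a description. The share of the sum of squares of log2 CPM that lay between the species had a median of 15.1% among the steady contigs and 24.9% in the level window; with 3 plants per species only 1 of the 5 degrees of freedom lies between the species, so a low share is read as no more than that, and the rule capped the values of the steady contigs. The coefficient of variation within a species had a median of 9.71% in G. pruinosa and 12.5% in G. racemosa for the steady contigs, against 21.5% and 18.8% in the level window. The median was thus higher in G. pruinosa than in G. racemosa in the window and lower in the steady set, where the limit on the ratio caps both. These coefficients rest on plain totals. With TMM-scaled totals both ends came from G. racemosa plants in 49 steady contigs and from G. pruinosa plants in 56. The order in the window is given neither with TMM-scaled totals nor without pruinosa plant 1. In that plant, 23.8% of the window contigs not steady in the other 5 libraries departed 2-fold or more. Neither order is therefore read as a difference between the species.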

How the data were processed

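Each of the 6 deposited files holds, per the file headers, raw read counts per contig for one library, with no normalization by the authors. Per the series' design text, reads of both species were compared on a de novo G. pruinosa transcriptome. For the read mapper and the counting program, the names and versions are not given in the sources. Libraries were stranded mRNA libraries of one plant each, per the labels' protocols. A G. racemosa read could be counted only where it matched a G. pruinosa contig, so the choice favours sequences that match in both species, and close copies of one gene may share reads.

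CPM used plain library totals (23661301 to 64908952 counts). The species were compared over the whole table with edgeR 4.0.16 in R 4.3.3 (filterByExpr with its minimum count of 10, TMM, glmQLFit and glmQLFTest, no covariate beside species), with Benjamini-Hochberg adjustment over 43447 contigs; a standard error is the size of the fold change (log2) over the square root of F. DESeq2 1.42.0 and limma-voom (limma 3.58.1) were alternatives. The fit was tested on simulated data. Counting errors cover counting only and not the variation between plants. Reads carry no molecular identifiers, so copies of the same molecule could not be told apart. The counting coefficient of variation is the square root of the mean Poisson variance of the CPM values, divided by the mean.

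The contigs, lists and tests were chosen with earlier results of these data known. Contigs named are the 8 with the lowest ratio, the 3 with the highest and the 3 with the lowest mean, the 2 on each side of the limit, and the 2 with the largest fold change in each direction; the others are marked as chosen after their values were seen. Replicate numbers name different plants, so there is no block.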

Additional observations from a re-analysis of the deposited data

How the results depend on the processing

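The number of steady contigs (350) follows its limits. It was 37 when the highest CPM could be at most 25% above the lowest and 1156 with a ratio limit of 2, where the median ratio was 1.21 and 1.62, and 878 and 110 with a minimum of 20 and 100 CPM. It was 449 with TMM-scaled totals, 391 with RLE factors (239 shared), 352 with no upper limit on the mean and 343 after thinning to the smallest total (329 shared). Leaving out one library gave from 427 (without pruinosa plant 3) to 705 (without pruinosa plant 1) steady contigs, 536 without racemosa plant 1 and 554 without racemosa plant 2; the limit on the ratio can only become easier to meet with fewer libraries, so all 350 remained in each. Without both pruinosa plant 3 and racemosa plant 1, a setting added after seeing the data, there were 718. The ratio of highest to lowest summed CPM (1.13) was 1.06 with the limit of 25% and 1.07 without those 2 libraries. Without one library, the median ratio ran from 1.36 to 1.38 and the summed ratio from 1.09 to 1.13. The share of contigs steady in 5 libraries that stayed so with the sixth (67.4%) was 44.6% and 87.0% with the limits of 25% and of 2. In the fit with a replicate block the median log2 fold change was -0.09 and 0 of the 350 were called; same-numbered plants had deviations correlated at -0.24, 0.03 and -0.21, and nothing in the labels pairs them. The median log2 fold change ran from -0.20 (without racemosa plant 3) to -0.045 (without pruinosa plant 2) when one library was left out, and was -0.17 without pruinosa plant 1; the cause was not tested. No steady contig was called in any of the 14 alternative fits, with a lowest adjusted p from 0.268 to 0.615; calls over all tested contigs ran from 0 to 4156 in these fits.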
